A study of Homo sapiens with 18 samples.

Results

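The cells that had received siRNA against UPF1 were compared directly with the cells that had received siRNA against RCOR1, both in vehicle and without reference to the control siRNA. All cells were LNCaP, an androgen-responsive human prostate cancer line. The comparison used 6 of the 18 libraries of the series, 3 for each siRNA, described as biological triplicates, and 14563 of the 60649 genes in the count table, those that passed a filter on low counts. Each siRNA was a SmartPool, a commercial mixture of several siRNAs to 1 gene. Cells of both groups were kept in androgen-deprived medium from the day after transfection, received ethanol 48 h after transfection and were harvested 48 h later. The other groups used here as a reference were the non-targeting pool in the same vehicle, and the UPF1 and RCOR1 pools with 5 nM R1881, a synthetic androgen, in place of ethanol. Because 1 pool was used per gene, loss of the target and other effects of that pool cannot be told apart, and protein was not measured.

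UPF1 is the RNA helicase at the centre of nonsense-mediated decay (NMD). This pathway recognises messages on which translation stops too early and hands them to nucleases, after the kinase SMG1 has phosphorylated UPF1. RCOR1, also called CoREST, is a scaffold protein. It joins the histone demethylase KDM1A to histone deacetylases, and the transcription factor REST brings that complex to neuronal genes that are kept silent outside the nervous system. UPF1 thus acts on RNA after transcription and RCOR1 on chromatin before it.

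Levels are given as CPM (counts scaled to a common library total) after scaling between libraries. Library values are in the order of deposition, and the labels do not say whether that order pairs libraries of the siRNAs. A difference is the log2 fold change of UPF1 siRNA minus RCOR1 siRNA ± its standard error (SE): a positive value means a higher level after UPF1 siRNA. A gene was called when its p from edgeR's quasi-likelihood test, adjusted by Benjamini-Hochberg over all genes tested, was below 0.05. Total counts per library ran from 11950288 to 14242458. On principal components, 58.6% of the variance lay on the axis that separated the siRNAs. The next axis, with 22.8%, ran within groups, together with the content of G and C bases (GC): genes under 40% GC deviated by -0.18, 0.18 and 0.32 (median log2) in the UPF1 siRNA libraries and by -0.25, -0.23 and 0.23 in the RCOR1 siRNA libraries. The nuclear RNA MALAT1 was highest in the same libraries, at 21551, 31553 and 36168 CPM after UPF1 siRNA and 13379, 15193 and 34313 CPM after RCOR1 siRNA. All 22 luminal prostate genes listed passed the filter. The 26 markers of other cell types summed to 50.2 to 58.3 CPM after UPF1 siRNA and 26.9 to 36.9 CPM after RCOR1 siRNA. Of those 26 markers, 5 passed the filter, and 8, among them TP63, KRT5, CD3E, CDH5 and COL1A2, had no count in the 6 libraries. VWF (1.76) and COL3A1 (1.36) were called higher, and their part in the results was not tested.

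Both pools lowered their own target. UPF1 (ENSG00000005007.13, chr19:18831938-18868236) stood at 21.9, 22.8 and 26.7 CPM with its own siRNA and at 124, 119 and 108 CPM with RCOR1 siRNA. Its difference was -2.29 ± 0.12 (edgeR, adjusted p = 3.07e-05), and control siRNA gave 144 ± 20.03 CPM (SD, n = 3). RCOR1 (ENSG00000089902.10, chr14:102592661-102730576) stood at 88.5, 87.5 and 91.1 CPM with UPF1 siRNA and at 17.2, 9.77 and 14.8 CPM with its own siRNA, a difference of 2.68 ± 0.19 (adjusted p = 9.45e-05). Control siRNA gave 107 ± 8.59 CPM. No library of either group overlapped the other group for either target.

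**Figure D1:**
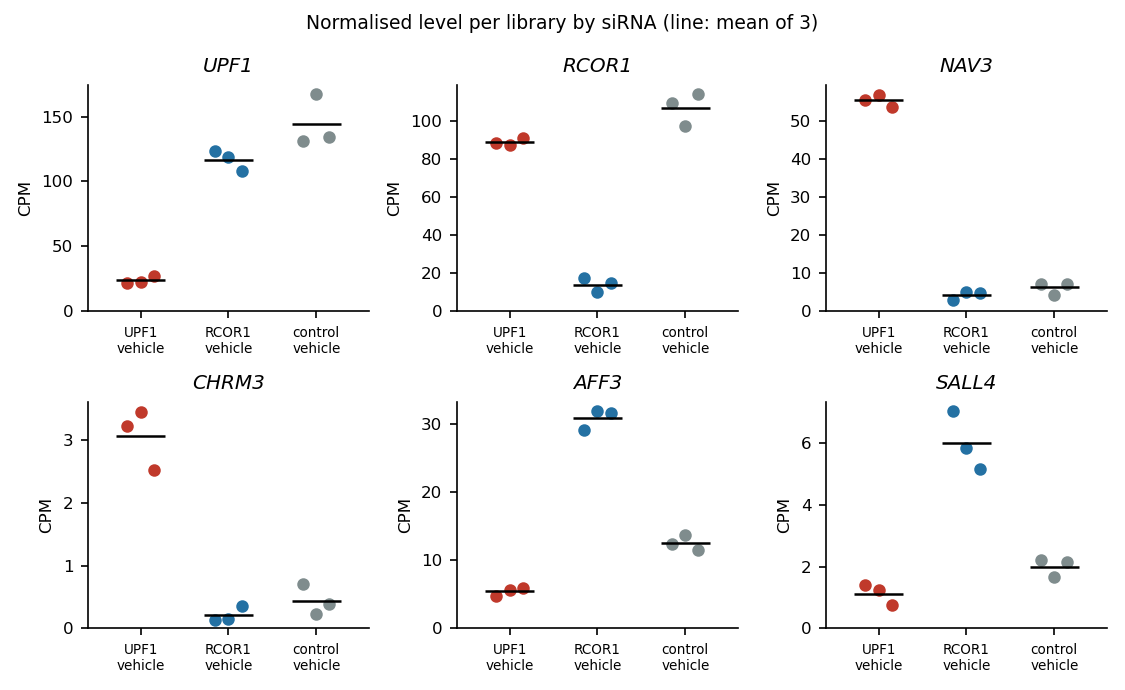
Normalised level (CPM, y axis, from 0) of 6 genes in each vehicle library, by siRNA (x axis), with the mean of 3 as a line. UPF1 is low in the UPF1 siRNA libraries alone, RCOR1 in the RCOR1 siRNA libraries alone. NAV3 and CHRM3 are high with UPF1 siRNA alone, while AFF3 lies on both sides of the control: below it with UPF1 siRNA and above it with RCOR1 siRNA. SALL4 is highest with RCOR1 siRNA.

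The transcriptomes differed in both directions to about the same extent. Of 14563 genes, 4420 were called (30.4%), 2172 higher (14.9%) and 2248 lower (15.4%) after UPF1 siRNA. At least a 2-fold difference was reached by 544 of the higher and 485 of the lower genes. The 3 libraries of one siRNA did not overlap those of the other for 4387 of the 4420 called genes, and for 6599 of all 14563 genes tested. The median difference over all genes was -0.01. Leaving out 1 library moved the number of calls by over 1.5 times in 3 cases: it was 2537 without the second UPF1 siRNA library, 2738 without the first RCOR1 siRNA library and 2915 without the second RCOR1 siRNA library. The control level, which the test did not use, lay between the 2 siRNAs for 2590 of the called genes, above both for 960 and below both for 870. A direct difference can therefore come from either siRNA, and the control level is given beside the genes described in most detail.

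**Figure D2:**
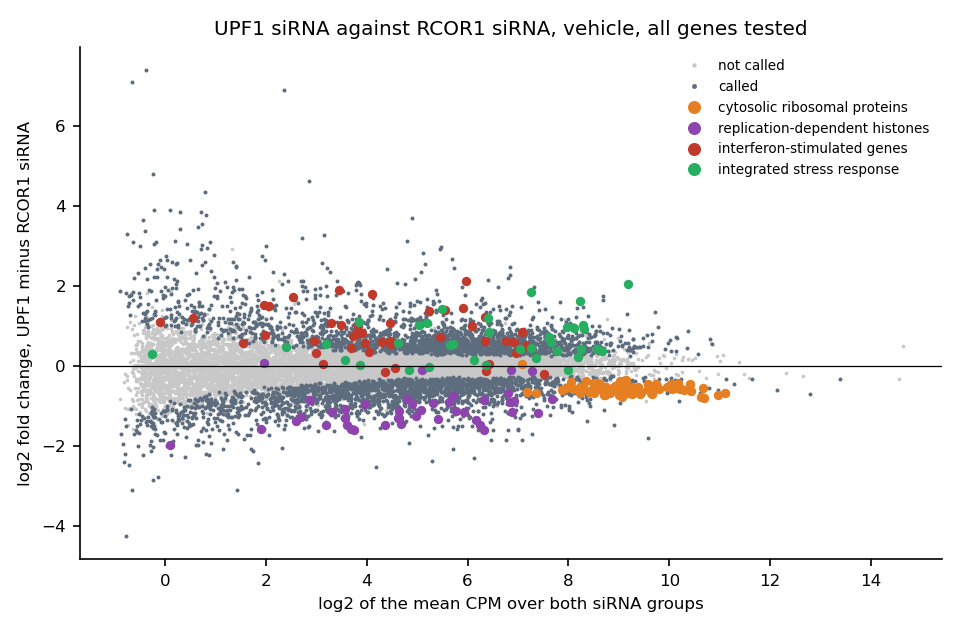
Each point is 1 of the 14563 genes: the log2 of its mean CPM (x axis) against the log2 fold change of UPF1 minus RCOR1 siRNA in vehicle (y axis). Ribosomal protein genes and replication-dependent histone genes lie below 0 except for 1 gene of each list, and interferon-stimulated genes and integrated stress response genes lie mostly above 0.

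Among the genes with the largest rise after UPF1 siRNA, several were near absent in the RCOR1 siRNA libraries. The ranking by fold change favours such genes, because only the higher group had to reach a mean of 1 CPM. MEGF10, SCG3 and GOLGA7B passed the filter on low counts through the UPF1 siRNA libraries alone. MEGF10 (ENSG00000145794.17, chr5:127290831-127465737), a receptor by which phagocytes and muscle precursors recognise other cells, had 10.3, 10.1 and 10.04 CPM with UPF1 siRNA and 0, 0 and 0.263 CPM with RCOR1 siRNA. This was 405 counts against 3, a ratio of 134 with a 95% counting interval of 45.4 to 651. SCG3 (ENSG00000104112.9, chr15:51681353-51721031), secretogranin III of neuroendocrine secretory granules, had 51 counts with UPF1 siRNA and 0 with RCOR1 siRNA. With the RCOR1 siRNA group set to 3 counts in all, the lower limit used for a count of 0, it was at least 16.8-fold higher, and GOLGA7B, with 63 counts against 0, at least 20.8-fold higher. Control siRNA left these genes near 0 too, at 0.236 CPM for MEGF10, 0.0501 for SCG3 and 0.0237 for GOLGA7B. The counting interval and the floors cover counting error only.

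At higher counts, NAV3 (ENSG00000067798.16, chr12:77324641-78213008), a microtubule-associated protein of the neuron navigator family, stood at 55.7, 57 and 53.8 CPM with UPF1 siRNA. With RCOR1 siRNA it stood at 2.91, 5.11 and 4.81 CPM, and with control siRNA at 6.28 ± 1.66 CPM, a difference of 3.71 ± 0.19 (edgeR, adjusted p = 3.07e-05). NAV3 was thus high in the 3 UPF1 siRNA libraries alone. KCNU1, a potassium channel subunit known from sperm, stood at 13.9, 14.7 and 13.3 CPM against 0.608, 0.751 and 0.263 CPM, a difference of 4.63 ± 0.25 (adjusted p = 3.11e-05), with 0.955 CPM in control. CHRM3, the muscarinic acetylcholine receptor M3, stood at 3.23, 3.44 and 2.53 CPM against 0.135, 0.15 and 0.350 CPM, a difference of 3.85 ± 0.37 (adjusted p = 0.00031), with 0.442 CPM in control. NOX1, a superoxide-producing NADPH oxidase of colon epithelium, stood at 2.94, 3.28 and 2.46 CPM against 0.338, 0.225 and 0.175 CPM. Its difference was 3.47 ± 0.32 (adjusted p = 0.00028), with 0.48 CPM in control. The remaining genes of the 15 with the largest rise were GAPLINC, LINC01326, DCDC2, ATOH8, PLPPR5, NXPE1, ANKRD1 and CNBD1, whose differences ran from 3.56 (CNBD1) to 4.79 (GAPLINC). All 8 had less than 1 CPM in every RCOR1 siRNA library, which the ranking favours.

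Among the genes with the largest fall, AFF3 (ENSG00000144218.21, chr2:99545419-100142739), a nuclear elongation factor of the AF4 family, stood at 4.77, 5.58 and 5.88 CPM with UPF1 siRNA and at 29, 31.9 and 31.6 CPM with RCOR1 siRNA. Its difference was -2.51 ± 0.13 (adjusted p = 3.07e-05), and the control, at 12.5 ± 1.14 CPM, lay between. SALL4, a zinc finger factor of stem cells, stood at 1.40, 1.23 and 0.744 CPM against 7.03, 5.86 and 5.16 CPM, a difference of -2.41 ± 0.25 (adjusted p = 0.000483). The control level of SALL4, 2.0 CPM, was closer to that of UPF1 siRNA, as it was for CEND1, a neuronal cell cycle exit protein. CEND1 had 2 counts with UPF1 siRNA and 44 with RCOR1 siRNA, a ratio of 22.2 with a 95% counting interval of 5.79 to 189, and 0.129 CPM with control siRNA. Also among the 15 genes with the largest fall, besides UPF1, were RP11-288G3.4, WI2-2413G8.1, P2RY2, RP11-71L14.4, HOXC8, ZNF843, C8orf34-AS1, SULT1C2, MTFP1 and P2RY11. The levels of these 10 were at most 5.21 CPM in any library, and RP11-288G3.4 is a processed pseudogene that may take reads of its parent gene. HOXC8 was not called without the second UPF1 siRNA library (adjusted p = 0.06), and C8orf34-AS1 was not called without that library (0.075) or the second RCOR1 siRNA library (0.093).

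The decay pathway came first among the gene groups followed. Of 14 NMD factors other than UPF1, 8 were higher and 1 was lower after UPF1 siRNA, with a median difference of 0.47. SMG1, the kinase of UPF1, stood at 384, 528 and 504 CPM with UPF1 siRNA and 161, 171 and 264 CPM with RCOR1 siRNA. Its difference was 1.25 ± 0.20 (edgeR, adjusted p = 0.00278), and its control level, 210 CPM, was near that of RCOR1 siRNA. SMG5, an adaptor that recruits decay enzymes to phosphorylated UPF1, stood at 242, 210 and 208 CPM against 135, 127 and 114 CPM, a difference of 0.81 ± 0.11 (adjusted p = 0.00116), with 143 CPM in control. SMG9, a subunit of the SMG1 kinase complex, rose by 0.77 ± 0.11, and UPF3A by 0.65 ± 0.10. The level ranges of the 2 siRNAs were apart for these 4 genes, as for 4387 of the 4420 called genes and 6599 of all 14563 genes tested. UPF2, UPF3B and GSPT1 rose as well, by 1.07 ± 0.29, 0.87 ± 0.22 and 0.58 ± 0.10, and SMG6, the endonuclease, by 0.35 ± 0.11. SMG8, the other regulatory subunit of the SMG1 complex, moved the opposite way: it stood at 20.7, 20.1 and 23.4 CPM against 46.7, 46.7 and 41.8 CPM, a difference of -1.08 ± 0.11 (adjusted p = 0.000403), with 40.7 CPM in control. Without the second UPF1 siRNA library, or without the second RCOR1 siRNA library, 5 factors were higher in place of 8. UPF2 and UPF3B, whose transcripts varied within groups in the order of the GC deviation (UPF2 at 53.9, 99.6 and 118 CPM with UPF1 siRNA), each lost their call without any 1 of 4 libraries. The adjusted p then ran from 0.052 to 0.089. SMG6 lost its call without the first or second UPF1 siRNA library or the second RCOR1 siRNA library (0.089 to 0.11).

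Transcripts described as NMD targets went both ways. Of 51 measured, 15 were higher and 12 lower, 30 lay above 0 and the median was 0.03, against 14.9% higher and 15.4% lower among all genes. SAT1, which makes the enzyme of polyamine breakdown, rose, at 429, 386 and 381 CPM against 169, 176 and 169 CPM, a difference of 1.22 ± 0.09 (edgeR, adjusted p = 9.45e-05), with 183 CPM in control. SLC7A11, the cystine transporter, stood at 164, 289 and 259 CPM against 46.9, 53 and 99.9 CPM, a difference of 1.84 ± 0.31 (adjusted p = 0.00343). Its control level was 157 ± 63.3 CPM, above every RCOR1 siRNA library. Host genes of small nucleolar RNAs, several of which are textbook NMD substrates because their spliced RNA carries short reading frames, went the other way. Of 24, 13 were lower and 0 higher, with a median of -0.40. This list overlaps that of the NMD targets, since SNHG8 is counted in both. SNHG4 stood at 31.8, 37.2 and 48.5 CPM against 115, 102 and 109 CPM, a difference of -1.47 ± 0.15 (adjusted p = 0.000482). SNHG16 stood at 94.3, 98.3 and 111 CPM against 214, 213 and 213 CPM, a difference of -1.07 ± 0.09 (adjusted p = 0.000225). SNHG8 and SNHG12 fell by 1.12 and 0.87. Control levels of these 4 (93.9, 229, 89.6 and 8.88 CPM) were near those of RCOR1 siRNA. GAS5, the best-known of these substrates, differed by -0.31 ± 0.10 (adjusted p = 0.0397), a call lost without any 1 of 4 libraries (0.098 to 0.18) and with DESeq2 (0.064). Counts per gene do not separate spliced from unspliced RNA or one isoform from another. Of 9 exon junction complex genes, PYM1 was higher (0.49 ± 0.10) and CASC3 lower (-0.47 ± 0.09), 22.2% called against 30.4% of all genes tested. Of 38 RNA decay enzymes, 3 were higher and 6 lower, 23.7% called against 30.4% of all genes tested. ZC3H12A, an endonuclease that degrades inflammatory messages, led the lower ones at -0.98 ± 0.12. Without the first or second RCOR1 siRNA library or the second UPF1 siRNA library, 2 were lower, and without the third RCOR1 siRNA library 7 were higher.

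In the complex of the other target, 5 of 18 measured CoREST members and partners were lower and 2 were higher after UPF1 siRNA, with a median of -0.23. That was 38.9% called, against 30.4% of all genes tested. KDM1A, the demethylase that RCOR1 stabilises on nucleosomes, stood at 47.5, 45.7 and 58.4 CPM with UPF1 siRNA and at 75.6, 78.1 and 79.2 CPM with RCOR1 siRNA. The difference was -0.62 ± 0.12 (edgeR, adjusted p = 0.00508), with 88.4 ± 2.13 CPM in control, so the RNA of KDM1A was lower with UPF1 siRNA than where its scaffold was targeted. CTBP2, a corepressor partner, stood at 92.4, 91.4 and 90.3 CPM against 139, 137 and 147 CPM, a difference of -0.63 ± 0.08 (adjusted p = 0.00134), with 136 CPM in control. Both kept their calls without any 1 library. RCOR2, a paralog of RCOR1, differed by -0.88 ± 0.23, HMG20B by -0.37 ± 0.12, HDAC1 by 0.33 ± 0.08 and SFMBT1 by 0.34 ± 0.10. Each of these 4 lost its call without some 1 library, with adjusted p up to 0.18 for HMG20B, so that 3 to 5 members were lower and 0 to 2 higher. REST itself did not pass the test, at -0.13 ± 0.18 (adjusted p = 0.624), nor did RCOR3 (0.10 ± 0.15) or HDAC2 (-0.01 ± 0.14).

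Neuronal genes known as targets of REST were called higher after UPF1 siRNA more often than after RCOR1 siRNA. Most of them were near silent: 20 of 54 passed the filter, 9 of these were higher and 2 lower, with a median of 0.47, and of the 34 not tested 10 had no count. SYP, synaptophysin of synaptic vesicles and a neuroendocrine marker, stood at 12.6, 9.92 and 10.4 CPM with UPF1 siRNA and at 3.04, 2.93 and 2.28 CPM with RCOR1 siRNA. The difference was 1.98 ± 0.18 (edgeR, adjusted p = 0.000236), and control siRNA, at 2.37 ± 0.29 CPM, was within the RCOR1 siRNA range. DISP2, a relative of the Hedgehog exporter, stood at 9.47, 6.4 and 7.96 CPM against 3.92, 3.01 and 2.45 CPM, a difference of 1.33 ± 0.22 (adjusted p = 0.00331), and its control, at 4.35 CPM, was above the RCOR1 siRNA libraries. TMEM145 (1.30), STMN3 (1.10), CPLX1 (1.07), NEFL (0.64), CELSR3 (0.59) and MAPK8IP2 (0.54) also rose, besides SCG3 above. SCG3 had 0 counts with RCOR1 siRNA and passed the filter through the UPF1 siRNA libraries alone. With a filter of at least 1 CPM in every library of 1 group, 8 list members were higher and 2 lower, with a median of 0.40. UNC13A, a vesicle priming factor, went down, at 0.561, 0.738 and 1.04 CPM against 2.84, 2.71 and 3.41 CPM, a difference of -1.92 ± 0.28 (adjusted p = 0.0017), with 2.28 CPM in control. RAB3A fell by 0.48. Over the list the median against control was 0.44 for UPF1 siRNA and 0.02 for RCOR1 siRNA, 2 values that share the control libraries. Without the second UPF1 siRNA library 5 of the 20 were higher. Of 8 neuroendocrine markers 3 lay above 0 and 5 below, with a median of -0.37: SYP, ONECUT2 (1.38 ± 0.22) and CEACAM5 (3.09 ± 0.57) rose and ENO2 fell (-0.44 ± 0.13, not called without any 1 of 4 libraries, adjusted p 0.09 to 0.15). CEACAM5 stood at 1.12, 1.23 and 1.12 CPM with UPF1 siRNA and at 0, 0.225 and 0.175 CPM with RCOR1 siRNA. It passed the filter through the UPF1 siRNA libraries alone.

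REST binds a long site made of a left and a right element, and the letters TTCAGCACC and GGACAGCGC were searched on both strands of the RefSeq promoter windows, from 250 bases before to 50 after a gene's start (GRCh38.p14). Only the first listed window of each gene was used, so other starts of a gene were not searched. Of the 20 neuronal genes 16 had a window. The first element stood in 18.8% of them and in 0.403% of the windows of all 27305 genes, and the second in 31.2% and 0.645%. Among the 9 called members with a window, 3 held the first and 3 the second. CELSR3, a cadherin of axon guidance at 15.6 ± 3.03 CPM against 10.3 ± 1.40 CPM (SD, n = 3), is shown because it was called higher and held a element in the 250 bases before its start. Its window, chr3:48662887-48663136 (minus strand), has both elements, in capitals; they stand apart and with the right one first, so they do not form that site.
CELSR3: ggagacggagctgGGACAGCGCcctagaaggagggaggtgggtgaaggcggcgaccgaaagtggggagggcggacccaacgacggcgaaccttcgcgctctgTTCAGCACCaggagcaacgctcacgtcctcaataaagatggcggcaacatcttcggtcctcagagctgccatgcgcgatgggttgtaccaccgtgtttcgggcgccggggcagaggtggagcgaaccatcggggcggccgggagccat

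Interferon-stimulated genes, which encode antiviral proteins induced by interferon signalling, had the highest median among the lists of 8 or more members. Of 43 measured, 29 were higher and 0 lower after UPF1 siRNA, and the median was 0.76 against -0.01 over all genes. RSAD2, viperin, which makes a chain-terminating nucleotide, stood at 120, 101 and 83.4 CPM with UPF1 siRNA and at 21.4, 26.4 and 22.3 CPM with RCOR1 siRNA. The difference was 2.12 ± 0.16 (edgeR, adjusted p = 0.000114), with 15.8 ± 0.22 CPM in control. BST2, tetherin, which holds budding virions at the cell surface, stood at 21.9, 16.2 and 13.7 CPM against 4.94, 4.81 and 4.11 CPM, a difference of 1.90 ± 0.20 (adjusted p = 0.000489), with 7.26 CPM in control. OAS2, which senses double-stranded RNA, stood at 31.8, 24.9 and 23.9 CPM against 8.11, 8.34 and 6.56 CPM, a difference of 1.8 ± 0.16 (adjusted p = 0.000234), with 8.86 CPM in control. For these 3 genes the lowest UPF1 siRNA library was above the highest RCOR1 siRNA library. Ranges were also separate for 4387 of the 4420 called genes and 6599 of all 14563 genes tested. XAF1 (1.72), TRIM22 (1.53), DHX58 (1.5), IFIT3 (1.40), IFI27 (1.08), IFIT1 (1.0) and ISG15 (0.62) rose too, while MX1 (0.33, adjusted p = 0.211), STAT2 (-0.13) and ZC3HAV1 (-0.21) did not pass. The count of 29 higher members moved by less than 1.5 times without any 1 library. Over the list the median against control was 1.0 for UPF1 siRNA and 0.25 for RCOR1 siRNA, with shared control libraries.

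Neighbouring immune groups rose in part. Of 16 genes of class I antigen presentation 6 were higher and 0 lower, 37.5% called against 30.4% of all genes tested. The immunoproteasome subunit PSMB9 led them, at 4.21, 3.44 and 2.31 CPM against 0.676, 1.13 and 0.525 CPM, a difference of 2.07 ± 0.35 (edgeR, adjusted p = 0.00331). ERAP1, which trims peptides for class I molecules, stood at 94.7, 96.6 and 92 CPM against 40.6, 41 and 49.3 CPM, a difference of 1.11 ± 0.11 (adjusted p = 0.000341). HLA-B (2.92, adjusted p = 0.116) did not pass. Among 5 measured ligands of the natural killer receptor NKG2D, RAET1L (1.99 ± 0.19), ULBP3 (0.86 ± 0.13) and ULBP1 (0.77 ± 0.17) rose, and RAET1L had the lowest level in control, 1.78 CPM. Of 17 targets and regulators of NF-kappaB, 6 rose and 1 fell, 41.2% called against 30.4% of all genes tested, and 11 rose with GC and length offsets. BIRC3, an inhibitor of apoptosis in the TNF receptor complex, stood at 63.7, 84 and 87.1 CPM against 7.44, 8.57 and 14.1 CPM, a difference of 2.97 ± 0.24 (adjusted p = 0.000149), and the control was at 11 ± 2.48 CPM. TNFAIP3, a feedback inhibitor, differed by 1.09 ± 0.21 and RELB by 0.95 ± 0.21. SOD2 fell by 0.63 ± 0.15, a call lost without the first RCOR1 siRNA library (adjusted p = 0.052) or the second UPF1 siRNA library (0.074).

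Promoter windows of the interferon group are shown because 29 members moved together. The letters GAAANNGAA, the core of the interferon response element, were found on either strand in 21 of the 32 members with a window (65.6%) and in 8.29% of all windows. They also stood in 16 of 38 windows of replication-dependent histone genes (42.1%), a list that was lower after UPF1 siRNA. Whether a match goes with the direction of a difference was not tested. The windows below give the 250 bases before the first listed start of RSAD2, chr2:6865635-6865884 (plus strand), and of BST2, chr19:17405631-17405880 (minus strand), with each match in capitals. In BST2 2 matches overlap.
RSAD2: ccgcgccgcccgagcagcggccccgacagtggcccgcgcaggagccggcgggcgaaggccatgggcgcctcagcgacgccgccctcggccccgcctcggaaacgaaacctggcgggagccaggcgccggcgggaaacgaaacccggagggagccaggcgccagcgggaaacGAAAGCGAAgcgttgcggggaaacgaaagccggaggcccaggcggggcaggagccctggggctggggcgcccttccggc
BST2: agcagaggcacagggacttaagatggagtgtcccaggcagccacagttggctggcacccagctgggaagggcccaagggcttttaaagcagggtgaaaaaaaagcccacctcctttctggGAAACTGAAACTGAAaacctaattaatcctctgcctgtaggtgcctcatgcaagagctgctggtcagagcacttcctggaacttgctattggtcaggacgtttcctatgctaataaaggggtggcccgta

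The integrated stress response, in which phosphorylation of eIF2 slows translation and raises the transcription factor ATF4, also had many rises. Of 36 measured members 24 were higher and 0 lower after UPF1 siRNA, with a median of 0.53. ATF4 was at 416 ± 27.9 CPM with UPF1 siRNA and 205 ± 9.03 CPM with RCOR1 siRNA (SD, n = 3), a difference of 1.02 ± 0.09 (edgeR, adjusted p = 0.000211). GDF15, a secreted stress hormone, stood at 1140, 937 and 712 CPM against 229, 251 and 196 CPM, a difference of 2.04 ± 0.17 (adjusted p = 0.0002), with 203 ± 22.1 CPM in control. NUPR1, a small chromatin protein induced by stress, stood at 522, 427 and 415 CPM against 146, 163 and 135 CPM, a difference of 1.62 ± 0.12 (adjusted p = 0.000114), with 159 CPM in control. ADM2, a peptide hormone, stood at 74.5, 63.6 and 59.3 CPM against 27.2, 22.9 and 23.5 CPM, a difference of 1.42 ± 0.12 (adjusted p = 0.000214). The groups did not overlap for these genes, as for 4387 of the 4420 called genes and 6599 of all 14563 genes tested. The factor DDIT3 (1.08), the serine synthesis enzyme PSAT1 (0.97) and the aminoacyl-tRNA synthetases GARS1 (0.94), NARS1 (0.94) and SARS1 (0.73) rose with them. The control levels were not all at that of RCOR1 siRNA: PSAT1 was at 289 CPM in control, between 333 with UPF1 siRNA and 170 with RCOR1 siRNA, and MTHFD2 at 122 CPM against 117 and 51.4. Over the list the median against control was 0.20 for UPF1 siRNA and -0.28 for RCOR1 siRNA, with shared control libraries. The letters TGATGNAA, the core of the element that ATF4 binds with C/EBP proteins, stood in 10 of 30 windows of the list (33.3%) and 3.67% of all windows. CHAC1, which breaks down glutathione, stood at 19.8 ± 5.58 CPM against 9.21 ± 0.48 CPM. It is shown because it was called higher and held a match in the 250 bases before its start. That window, chr15:40953221-40953470 (plus strand), has the match in capitals on the reverse strand.
CHAC1: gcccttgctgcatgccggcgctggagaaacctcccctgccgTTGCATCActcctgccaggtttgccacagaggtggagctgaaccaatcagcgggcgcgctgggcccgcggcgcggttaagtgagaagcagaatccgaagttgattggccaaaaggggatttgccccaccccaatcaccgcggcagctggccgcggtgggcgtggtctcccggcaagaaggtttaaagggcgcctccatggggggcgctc

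Chaperones and secretory factors of the endoplasmic reticulum rose as well, 24 of 32 higher and 2 lower with a median of 0.45. AGR2, a disulphide isomerase of mucus-secreting epithelium, stood at 58.3, 56.3 and 55.6 CPM with UPF1 siRNA and at 9.80, 11.2 and 12.5 CPM with RCOR1 siRNA, a difference of 2.35 ± 0.12 (edgeR, adjusted p = 3.07e-05). ERN1, which encodes the stress sensor IRE1, stood at 122, 117 and 115 CPM against 55, 48.1 and 50.4 CPM, a difference of 1.2 ± 0.10 (adjusted p = 0.000138). Controls of both (7.88 and 49.9 CPM) were near RCOR1 siRNA. No library of one siRNA reached the range of the other, as for 4387 of the 4420 called genes and 6599 of all 14563 genes tested. DNAJB9 rose by 1.12, XBP1 by 0.51 and the chaperone HSPA5 by 0.34, while the lectin chaperone CANX fell by 1.10 and CREB3L4 by 0.74. Among 18 targets of the oxidative stress factor NRF2, 9 were higher and 1 lower, with OSGIN1 at 1.76 ± 0.25 and PGD, of the pentose phosphate pathway, at 1.10 ± 0.11. HMOX1, haem oxygenase, was the member that fell, at 29.4, 21.7 and 15.4 CPM against 36.2, 43.6 and 38.5 CPM (-0.83 ± 0.21, adjusted p = 0.0193). Its control was lower than both, at 11.3 ± 1.21 CPM, and its call was lost without the first or second RCOR1 siRNA library or the second UPF1 siRNA library (adjusted p 0.05 to 0.078). Of 28 p53 targets 7 were higher and 2 lower with a median of 0.07, 32.1% called against 30.4% of all genes tested. Without the second UPF1 siRNA library 3 were higher, and without the second RCOR1 siRNA library 4 were. PHLDA3, a brake on AKT, led them apart from GDF15, at 0.90 ± 0.17.

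**Figure D3:**
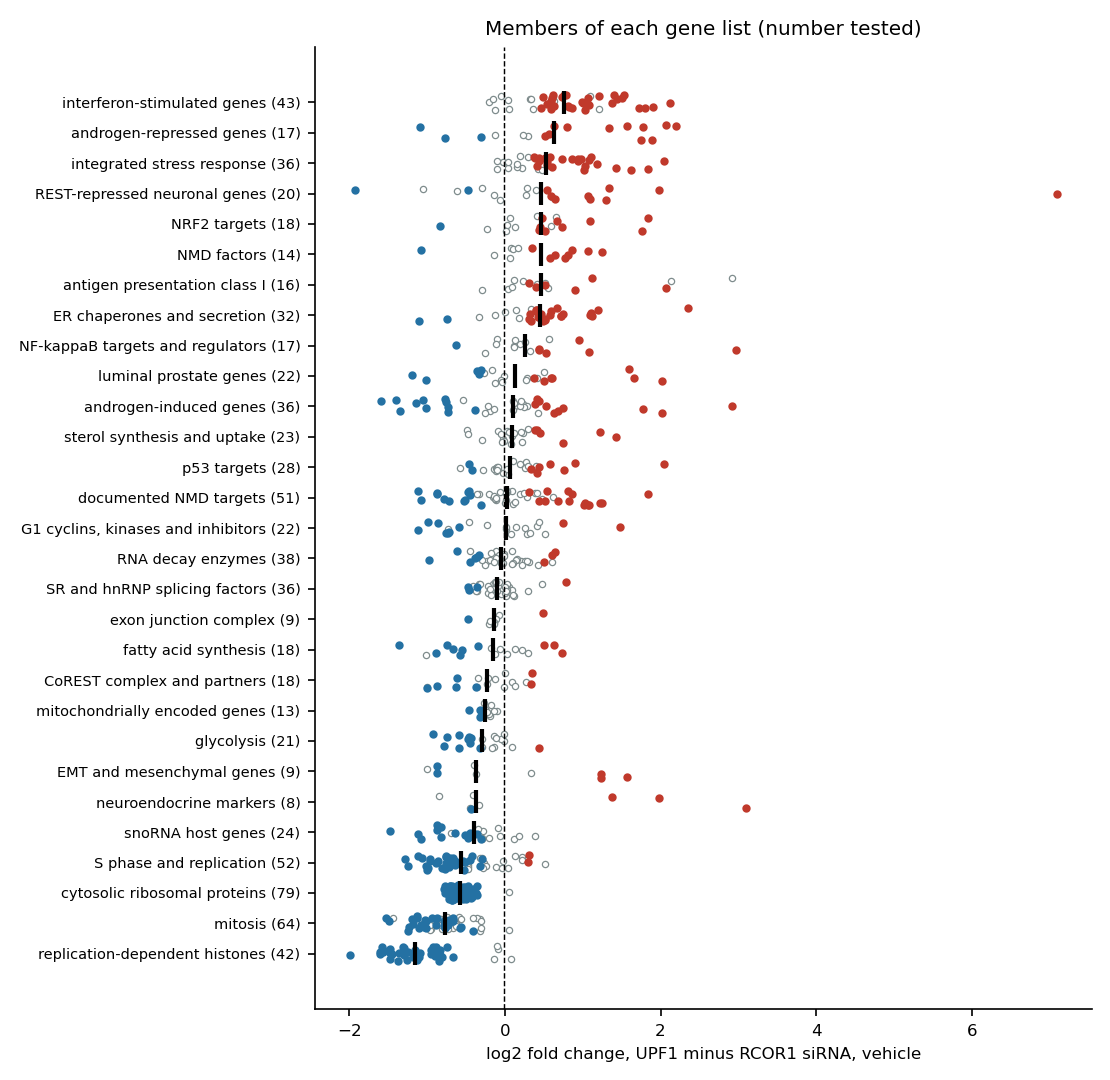
Log2 fold change of UPF1 minus RCOR1 siRNA in vehicle (x axis) of each measured member of the 29 gene lists with 8 or more members (y axis, number measured in brackets). Filled red and blue points are called higher and lower, open points are not called, the black bar is the median and the dashed line the median of all 14563 genes (-0.01). Interferon-stimulated genes stand at the top (median 0.76) and replication-dependent histones at the bottom (-1.15).

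The ribosomal proteins shifted down almost as 1 block. Of 79 genes for proteins of the cytosolic ribosome, 78 were lower and 0 higher after UPF1 siRNA, with a median of -0.58; RPL22 alone did not pass (0.05 ± 0.10, adjusted p = 0.738). Their share of all counts was 4.40, 3.88 and 4.23% with UPF1 siRNA and 6.31, 6.84 and 5.83% with RCOR1 siRNA, so the groups were apart. RPL3, of the peptidyl transferase region, stood at 1244, 1120 and 1256 CPM against 2062, 2211 and 1980 CPM, a difference of -0.79 ± 0.09 (edgeR, adjusted p = 0.000587). RPL7A fell by 0.77. Against control, with shared libraries, the list's median was -0.44 for UPF1 siRNA and 0.15 for RCOR1 siRNA. Most of these genes have processed pseudogenes that may share reads. With offsets for GC and length, an alternative added after the data were seen, the list's count stayed within 1.5 times.

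Genes of cell division were lower after UPF1 siRNA. Of 42 measured genes of replication-dependent histones, which supply the histones of S phase and lack a poly(A) tail, 38 were lower and 0 higher, with a median of -1.15. H1-5, a linker histone, stood at 27.9, 35.1 and 56.3 CPM with UPF1 siRNA and at 121, 130 and 113 CPM with RCOR1 siRNA, a difference of -1.61 ± 0.23 (edgeR, adjusted p = 0.00169). H3C4 had the largest difference of the list, at 0.421, 0.574 and 0.298 CPM against 1.89, 1.58 and 1.66 CPM (-1.98 ± 0.32, adjusted p = 0.00274). Control siRNA gave 200 ± 46.1 CPM for H1-5 and 2.10 ± 0.62 CPM for H3C4, above both siRNAs. Histone genes are near-identical copies, so that the assignment of reads between them is uncertain. Of 52 genes of S phase and replication 32 were lower and 2 higher, with a median of -0.56. CDC45, a part of the replicative helicase, stood at 2.94, 4.26 and 6.77 CPM against 9.53, 10.4 and 10.4 CPM (-1.12 ± 0.26, adjusted p = 0.014), and MCM2 differed by -0.64 ± 0.10. Without the first or second RCOR1 siRNA library, or the second UPF1 siRNA library, 20 or 21 S phase genes were lower, and no fit without 1 library called more than 1 higher. CDC45 was not called without either of the last 2 (adjusted p 0.057 and 0.063).

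Of 64 genes of mitosis 63 lay below 0, and 31 were called lower and 0 higher, with a median of -0.77. ESPL1, separase, stood at 5.19, 6.56 and 9.15 CPM against 24.3, 19.9 and 15.9 CPM, a difference of -1.53 ± 0.23 (edgeR, adjusted p = 0.00214). KIFC1, a spindle motor, stood at 3.93, 4.10 and 3.35 CPM against 11, 9.69 and 11.3 CPM, a difference of -1.49 ± 0.15 (adjusted p = 0.000442), and the mitotic kinase PLK1 was at 18.7 ± 2.16 CPM against 34.7 ± 1.91 CPM. TOP2A, at 37.6 ± 21.4 CPM against 62.8 ± 24.9 CPM, did not pass, and its libraries overlapped (adjusted p = 0.247). The median deviation of the 64 genes from their mean over the 6 libraries was -0.89, -0.34 and 0.05 with UPF1 siRNA and 0.32, 0.31 and 0.57 with RCOR1 siRNA. The first UPF1 siRNA library was the lowest, and the third was close to the mean. Called members numbered 52 with no filter on low counts, 51 with GC and length offsets and 45 without the third UPF1 siRNA library, against 21 without the second. For most named division genes the control was the highest of the 3 groups: PLK1 was at 62.6 CPM, ESPL1 at 32.1 CPM and MCM2 at 116 CPM. The list's median against control was -1.69 for UPF1 siRNA and -0.76 for RCOR1 siRNA, with shared control libraries. In bulk RNA, fewer dividing cells and less of these RNAs per cell cannot be told apart. Of the G1 regulators, MYC stood at 40.1, 46.4 and 53.8 CPM against 103, 105 and 95 CPM, a difference of -1.11 ± 0.12 (adjusted p = 0.000612), with 160 ± 18.6 CPM in control. CCNE1 fell by 0.99 and E2F3 by 0.86, and 7 of 22 were lower and 2 higher, 40.9% called against 30.4% of all genes tested. CDKN2B, an inhibitor of CDK4 and CDK6, rose, at 38.2, 37.1 and 29.9 CPM against 10.01, 12.9 and 15.1 CPM (1.48 ± 0.17, adjusted p = 0.000717), and the control was lower than both, at 5.34 ± 0.50 CPM. Without the third RCOR1 siRNA library 5 of the 22 were higher.

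The promoter letters of these groups were counted in the same windows. CCAAT stood in 34 of 38 histone windows (89.5%) and 35.7% of all windows, and the octamer ATTTGCAT in 21 of 38 (55.3%) and 1.8%. CCAAT also stood in 21 of 29 windows of the endoplasmic reticulum list (72.4%), which was higher after UPF1 siRNA. TTTGAA, the core of the cell cycle homology region, stood in 37 of 53 mitosis windows (69.8%) and 15.4% of all, and the E2F letters GCGGGAA in 18 of 43 S phase windows (41.9%) and 6.56%. Among called members the letters stood in 12 of 25 mitosis windows (48%) and 9 of 27 S phase windows (33.3%). The window of H3C4, chr6:26199294-26199543 (minus strand), is shown as the histone gene with the largest fall that held both letters, in capitals on either strand.
H3C4: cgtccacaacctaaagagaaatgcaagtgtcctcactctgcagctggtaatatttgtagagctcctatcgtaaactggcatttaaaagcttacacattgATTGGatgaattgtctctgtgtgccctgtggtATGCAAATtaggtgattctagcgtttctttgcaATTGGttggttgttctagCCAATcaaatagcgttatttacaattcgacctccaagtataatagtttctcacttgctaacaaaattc

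**Figure D4:**
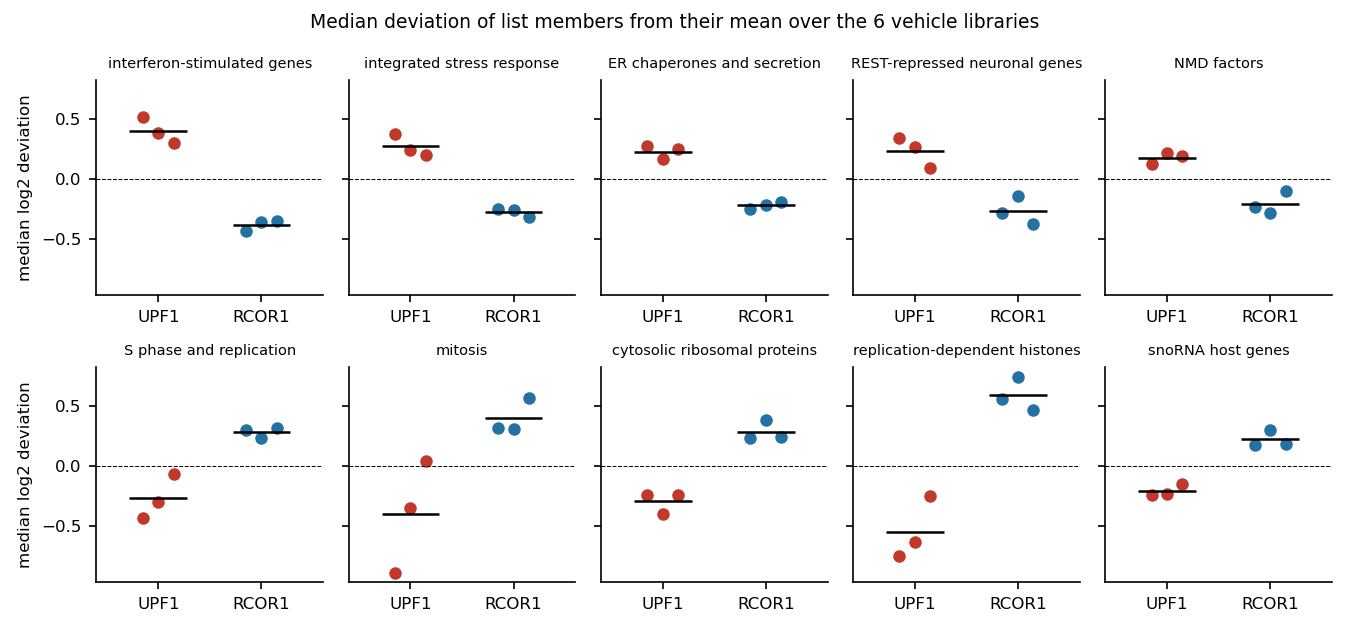
Median deviation (log2, y axis) of the members of 10 gene lists from their own mean over the 6 vehicle libraries, 1 point per library by siRNA (x axis), with the mean of 3 as a line. The groups are apart in all 10 panels, and the mitosis panel has the widest spread among the UPF1 siRNA libraries (-0.89 to 0.05). The 10 lists were picked for display. In lists not drawn, among them the NMD targets, the RNA decay enzymes and the splicing factors, the groups overlap.

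Androgen-responsive genes were split in the vehicle cells, which were in androgen-deprived medium with no androgen added. Of 36 measured androgen-induced genes, 10 were higher and 11 lower after UPF1 siRNA, with a median of 0.11. Lower were 3 kallikrein genes, among others. KLK4 stood at 37.4, 36.5 and 36.2 CPM with UPF1 siRNA and at 108, 124 and 98.6 CPM with RCOR1 siRNA, a difference of -1.59 ± 0.11 (edgeR, adjusted p = 9.45e-05), and the control, at 50.5 ± 8.64 CPM, was nearer to UPF1 siRNA. KLK3, which encodes prostate-specific antigen, stood at 251, 234 and 235 CPM against 404, 437 and 387 CPM, a difference of -0.77 ± 0.09 (adjusted p = 0.000612), with 318 ± 53.5 CPM in control. MAF, SGK1, PMEPA1 and KLK2 differed by -1.40, -1.35, -1.05 and -1.14. KLK2 and KLK3 are similar in sequence and may share reads. Higher were TRPM8, the cold-sensing channel of prostate epithelium, at 24, 22.8 and 19.8 CPM against 5.48, 4.28 and 6.74 CPM (2.02 ± 0.18, adjusted p = 0.000225), ADAM7 (2.92 ± 0.34) and F5 (1.78 ± 0.29). TRPM8 in control, at 12.8 ± 1.8 CPM, lay between the siRNAs. FKBP5 did not pass (-0.22 ± 0.11, adjusted p = 0.181). Without the first RCOR1 siRNA library or the second UPF1 siRNA library 6 or 5 of the list were higher.

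Androgen-repressed genes leaned to the UPF1 side, 11 of 17 higher and 3 lower with a median of 0.63. DDC, aromatic amino acid decarboxylase, stood at 174, 176 and 196 CPM against 38.7, 39.3 and 41.4 CPM, a difference of 2.19 ± 0.10 (edgeR, adjusted p = 3.07e-05), and the control, at 96.1 ± 1.09 CPM, lay between. UGT2B17, which glucuronidates androgens, stood at 86.9, 90.5 and 110 CPM against 24.1, 29.4 and 30.7 CPM (1.77 ± 0.14, adjusted p = 0.000128), with 59.4 ± 3.79 CPM in control. UGT2B15 followed at 1.89 ± 0.19, and the 2 genes share near-identical sequence, so that reads may be split between them. COL5A2 (1.57 ± 0.10) and OPRK1 (1.34) rose too, DAPK1 (-1.09) and ACKR3 (-0.77) fell. Among 22 luminal genes 7 were higher and 5 lower; 2 were lower without the first RCOR1, the second UPF1 or the third UPF1 siRNA library, and 3 without the second RCOR1 siRNA library. ACP3, prostatic acid phosphatase, stood at 673, 606 and 584 CPM against 192, 199 and 201 CPM (1.65 ± 0.09, adjusted p = 3.11e-05), while KRT19 differed by -1.20 ± 0.17. FOXA1 (-0.03), HOXB13 (-0.17) and EPCAM (-0.01) did not pass.

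Among metabolic genes, of 23 sterol genes 6 were higher and 0 lower, 26.1% called against 30.4% of all genes tested. SC5D was at 1.43 ± 0.16 and STARD4, a sterol carrier, at 1.22 ± 0.18 (edgeR, adjusted p = 0.00199). Of the 23, 3 were higher without the first RCOR1 siRNA library or the second UPF1 siRNA library. Of 18 fatty acid genes 7 were lower and 3 higher. The elongase ELOVL7 fell by 1.37 ± 0.15, the desaturase FADS2 by 0.74 ± 0.09 and fatty acid synthase, FASN, by 0.67, and ACSL1 rose by 0.74 ± 0.09. Of 21 glycolysis genes 10 were lower and 1 higher, with LDHB at -0.78 ± 0.13 and LDHA at -0.75 ± 0.11, but 4 to 6 were lower without the first or second RCOR1 siRNA library or the second UPF1 or the third UPF1 siRNA library. Of 13 mitochondrially encoded genes 3 were lower (23.1% called, against 30.4% of all genes tested) and all 13 lay below 0. Without any 1 library 0 to 1 were lower, against 5 with upper quartile factors or with 12 libraries in the fit and 6 with no filter on low counts or with GC and length offsets. Splicing factors of the SR and hnRNP families stayed mostly uncalled, 1 of 36 higher (SRSF9, 0.78 ± 0.09) and 3 lower, against 13 lower with GC and length offsets. That was 11.1% called, against 30.4% of all genes tested. Of 9 mesenchymal genes COL5A2, FBN1 (1.23 ± 0.19) and CCN1 (1.23 ± 0.13) rose and FN1 fell (-0.87 ± 0.10), as did VIM (-0.87); 1 was lower without the first RCOR1, the second UPF1, the third RCOR1 or the third UPF1 siRNA library. Of 5 nuclear long noncoding RNAs TUG1 rose (0.88 ± 0.13), 20% called against 30.4% of all genes tested. MALAT1, at 0.51 ± 0.35, passed only without the third RCOR1 siRNA library (adjusted p = 0.0085) or with no filter on low counts (0.0072).

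Gene type, GC content and length moved with the calls. Genes of up to 40% GC had a median of 0.17, with 16.8% higher and 4.52% lower, and genes over 60% GC a median of -0.13, with 7.37% higher and 19.9% lower. Long intergenic RNAs were lower in 15.4% and higher in 8.60% of 628, and antisense RNAs lower in 16.6% and higher in 8.70% of 724. Protein-coding genes were even, at 16.2% higher and 15.9% lower of 12068. The strand setting of the counting is not given in the sources used here, so an antisense gene may hold reads of its partner.

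The same pair of siRNAs was compared in cells with R1881, in 6 other libraries. There 5816 of the 14563 genes were called (39.9%), 3198 higher and 2618 lower. Of the 4420 vehicle calls 3989 had the same sign, and 2723 were called in both treatments, 2700 of them in the same direction (1427 higher and 1273 lower). NAV3 differed by 3.30 with R1881 and SYP by 2.18. The integrated stress response (27 higher, 0 lower of 36), the endoplasmic reticulum genes (27 and 2 of 32), the neuronal genes (13 and 1 of 20), the mitosis genes (0 and 59 of 64), the histones (2 and 34 of 42) and the ribosomal proteins (0 and 64 of 79) leaned the same way as in vehicle. Interferon-stimulated genes counted 21 higher and 3 lower of 43. The NMD factors counted 5 higher and 1 lower of 14: SMG5 (0.84), SMG9 (1.15), UPF3A (0.72) and SMG6 (0.62) rose, while SMG1 (0.29, adjusted p = 0.552) and UPF2 (-0.56, adjusted p = 0.29) did not pass. DHX34, an NMD helicase, was the other rise (0.47). Calls with R1881 numbered 3563 without its second UPF1 siRNA library and 3870 without its second RCOR1 siRNA library.

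Whether a difference depended on R1881 was tested by the interaction, the R1881 difference minus the vehicle difference over 12 libraries. It was called for 238 genes (1.63%), 116 positive and 122 negative. Of these, 153 were also called in vehicle, and 20 were called in both treatments with opposite signs. The count of 238 ran from 38, without the first RCOR1 siRNA vehicle library, to 2292, without the third UPF1 siRNA library with R1881, and 862 with DESeq2; genes that kept the call in all 12 such fits are taken first. KLK2 is such a gene. It stood at 10.2, 11 and 8.78 CPM with UPF1 siRNA and 22.6, 22.6 and 21 CPM with RCOR1 siRNA in vehicle, and at 533, 511 and 432 CPM against 332, 275 and 307 CPM with R1881. UPF1 siRNA thus gave the lower level in vehicle and the higher level with R1881, an interaction of 1.76 ± 0.15 (edgeR, adjusted p = 0.000525). KLK3 did the same, at 3912, 3806 and 3219 CPM against 3012, 2458 and 2723 CPM with R1881 (interaction 1.12 ± 0.13, adjusted p = 0.00346). So did REXO5, an RNA exonuclease, with an interaction of 1.56 ± 0.17 (adjusted p = 0.00263). TMPRSS2 also changed sign, from -0.38 to 0.27 (interaction 0.59 ± 0.09, adjusted p = 0.0159), but kept its call in 7 of the 12 fits, and its vehicle call was lost without the second library of either siRNA (adjusted p = 0.051 in each).

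**Figure D5:**
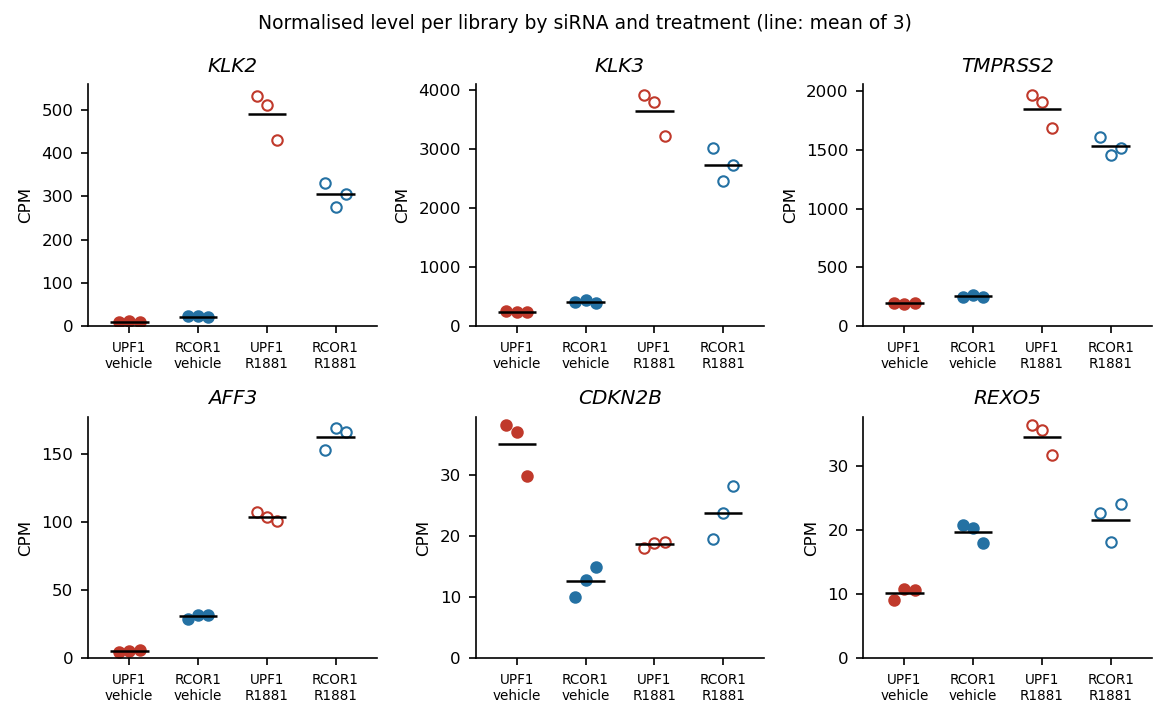
Normalised level (CPM, y axis, from 0) of 6 genes in each library of UPF1 and RCOR1 siRNA in vehicle (filled) and R1881 (open), with the mean of 3 as a line. KLK2, KLK3, TMPRSS2 and REXO5 are lower with UPF1 siRNA in vehicle and higher with it in R1881, the difference of AFF3 is smaller in R1881, and CDKN2B is higher with UPF1 siRNA in vehicle alone.

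Other vehicle differences shrank with R1881. AFF3 rose in both arms, to 107, 104 and 101 CPM with UPF1 siRNA and 153, 170 and 166 CPM with RCOR1 siRNA, and its difference went from -2.51 to -0.66 (interaction 1.8 ± 0.12, edgeR, adjusted p = 8.09e-05). KLK4 and the potassium channel KCNMA1 shared that pattern, with interactions of 1.12 ± 0.14 and 1.02 ± 0.10. AMOTL1, an angiomotin of cell junctions, stood at 98, 87.8 and 83.6 CPM with UPF1 siRNA against 14.5, 16.8 and 18.3 CPM with RCOR1 siRNA in vehicle. With R1881 it stood at 22.7, 20.3 and 18.9 CPM against 11.9, 14.1 and 11.1 CPM (interaction -1.77 ± 0.16, adjusted p = 0.000963). MYNN, a zinc finger protein, stood at 153, 200 and 231 CPM against 33.7, 30.7 and 41.4 CPM in vehicle and at 15.8, 17.6 and 30.9 CPM against 24.1, 28.2 and 30.5 CPM with R1881 (interaction -2.89 ± 0.34, adjusted p = 0.00382). The UPF1 siRNA libraries of MYNN were high in vehicle alone. Those of AMOTL1 stayed above RCOR1 siRNA with R1881, by a difference of 0.73 in place of 2.44 in vehicle. CDKN2B went from 1.48 to -0.36 (interaction -1.89 ± 0.23, adjusted p = 0.00382). MEGF10, at 10.04 to 10.3 CPM with UPF1 siRNA in vehicle, was at 0.0633, 0.304 and 0.0877 CPM with UPF1 siRNA and R1881 and at 0 in the 3 RCOR1 siRNA libraries with R1881. Its interaction has no usable estimate, since the RCOR1 side was at or near 0 in both treatments.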

How the data were processed

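RNA was depleted of ribosomal RNA and sequenced from 18 libraries in 6 groups of 3. Per the submitters' processing notes, the tools were bcl2fastq 2.20, STAR 2.7.9a and featureCounts of Subread 1.6.4, with build GRCh38.p7. The deposited values are raw counts per gene, made by the authors. For the annotation release and the strand setting, the sources used here state nothing. GENCODE 29 positions were attached by gene identifier for 14412 of the 14563 genes tested.

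Counts were filtered with edgeR's filterByExpr, scaled by trimmed mean of M values and tested with edgeR 4.0.16 (quasi-likelihood) in R 4.3.3, on 6 libraries for each direct comparison and on 12 for the interaction. Calls are at an adjusted p below 0.05. DESeq2 1.42.0, limma 3.58.1 (voom), other scalings, filters and fits, and each library left out, were alternatives. The method was tested on simulated data. Replicate libraries differed beyond sampling noise (chi-square per degree of freedom of at least 4.59). Promoter windows came from RefSeq, GRCh38.p14.

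Named were UPF1 and RCOR1; the 15 genes per direction of largest fold change, with separate ranges and a mean of at least 1 CPM in the higher group; tested NMD and CoREST list members; the 4 called members of largest fold change in every other list; the 10 leading interaction genes; and KLK3, TMPRSS2, FKBP5, GAS5 and MALAT1. Further list members are given as examples, and some genes that the rule names are not reported here. Members and lists were chosen with earlier results of these data known.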

Additional observations from a re-analysis of the deposited data

Results flagged for a closer look

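For 18 named genes the difference between UPF1 and RCOR1 siRNA was not the same in vehicle and in R1881, by edgeR's interaction test over 12 libraries. The interaction is the log2 fold change with R1881 minus that in vehicle. It was positive for AFF3 (1.8), KLK2 (1.76), REXO5 (1.56), SIPA1L2 (1.23), KLK3 (1.12), KLK4 (1.12) and KCNMA1 (1.02), and negative for MYNN (-2.89), CDKN2B (-1.89), AMOTL1 (-1.77) and ITPR1 (-0.928). These 11 genes were called in each of the 12 fits that left out 1 library.

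SIPA1L2, a regulator of small GTPases, stood at 43.0, 43.6 and 40.3 CPM with UPF1 siRNA and 27.2, 27.7 and 32.7 CPM with RCOR1 siRNA in vehicle. With R1881 it stood at 167, 151 and 162 CPM against 47.1, 43.3 and 44.0 CPM, so the groups lay further apart. ITPR1, a calcium channel of the endoplasmic reticulum, stood at 68.0, 69.5 and 72.8 CPM against 68.8, 68.0 and 76.6 CPM in vehicle, where the groups overlapped. With R1881 it stood at 30.9, 30.6 and 29.4 CPM against 54.7, 55.5 and 57.1 CPM, and they did not.

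The interaction was called in fewer of those 12 fits for the other 7 genes. It was 0.589 for TMPRSS2 (7 fits), 1.77 for UNC13A (5 fits), -2.48 for NOX1 (4 fits), -0.531 for GSPT1 (4 fits), 0.702 for ZC3H12A (4 fits), 0.766 for DDC (3 fits) and -0.417 for ACP3 (2 fits).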

How the results depend on the processing

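No paired analysis was run, because the labels give no replicate numbers. The deviation of genes low in GC rose in the order of deposition in both vehicle groups. An effect shared by libraries at the same position was not tested. The number of genes called in vehicle (4420) ran from 4116 with DESeq2 to 6161 with offsets for GC content and length, the latter chosen after seeing the data. Without 1 library it ran from 2537 to 5060, with 1270 to 2785 higher and 1250 to 2275 lower. The lowest values of all calls and of higher calls came without the second UPF1 siRNA library, and that of lower calls, 1250, without the first RCOR1 siRNA library. Lower calls were 1267 without the second UPF1 and 1338 without the second RCOR1 siRNA library. The share of calls that were higher, 49.1%, was 41.8% with upper quartile factors, which put the median of all genes at -0.07, and 55% without the third RCOR1 siRNA library. Counts of at least 2-fold differences stayed within 1.5 times in every alternative run. Calls with R1881 ran from 3563 to 6981 without 1 library. The interaction, 238 calls, gave 862 with DESeq2 and 38 to 2292 without 1 library. Of the 18 named genes followed in these fits, 11 kept the interaction call in all 12; the other calls were not followed gene by gene. No named gene changed sign with its call in any alternative run. The cause of these shifts was not tested. Depth limits genes under 1 CPM, where single counts move a value.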

Other observations

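Further genes were looked at after their values were seen, so they are given as values. SPRY4, a feedback inhibitor of receptor tyrosine kinase signalling, was at 77.1 CPM with UPF1 siRNA, 10.1 with RCOR1 siRNA and 13.7 with control siRNA (mean, n = 3), a difference of 2.93 (edgeR, adjusted p = 3.53e-05) and of 3.33 with R1881. The immediate early genes FOS (2.61) and EGR1 (2.22) were called higher in vehicle, whereas with R1881 FOS differed by 0.63 (adjusted p = 0.179) and EGR1 by 0.06 (adjusted p = 0.82). FOSB (0.12), JUN (0.10), SPRY2 (0.57), SPRED1 (0.52) and ETV5 (0.60) were not called in vehicle.

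Values of a few more genes follow. REG4, a secreted lectin, was at 49.8 CPM against 5.74 CPM, a difference of 3.11 (edgeR, adjusted p = 7.74e-05) and of 3.87 with R1881. GCG, the glucagon precursor, was at 2.40 against 0.291 CPM (3.05), and the nuclear receptor HNF4G at 1.91 against 0.438 CPM (2.12). LGALS4 differed by 1.87 and SI by 2.07, with an adjusted p of up to 0.0587 and 0.0631 when 1 library was left out. With R1881 the adjusted p (edgeR) was 0.0777 for GCG, 0.552 for HNF4G, 0.8 for LGALS4 and 0.865 for SI, so none of these 4 was called. Among chemokines induced by interferon, CXCL11 was at 4.47 against 0.806 CPM (2.49) and CXCL10 at 5.21 against 1.84 CPM (1.51), while CCL5 (1.13) reached an adjusted p of 0.0764 without 1 library.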
